A study of Homo sapiens with 6 samples.

Results

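The AP-1 and EGR transcription factors encoded by immediate early genes were examined in 786-O cells, a human clear cell renal carcinoma line. The set held the 10 genes FOS, FOSB, FOSL1, FOSL2, JUN, JUNB, JUND, EGR1, EGR2 and EGR3, taken by symbol from a table of 54261 gene symbols. RNA-seq had been done on 3 libraries of cells given PHF8 guide RNA, labelled PHF8 knockout, and on 3 libraries of cells given control guide RNA, labelled PHF8 wildtype. Both groups had been edited with CRISPR-Cas9 and grown in RPMI-1640 with fetal bovine serum, and PHF8 is a histone demethylase. Neither a cloning step nor pooling is mentioned in the labels. Separate cultures or guide RNAs behind the libraries of a group are not mentioned either, so p-values describe the spread among these 6 libraries, which may be technical.

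FOS and JUN proteins are basic leucine zipper factors that pair with each other to form AP-1, which binds DNA and drives genes of growth, migration and matrix remodelling. JUN proteins can also pair among themselves, whereas FOS proteins need a partner. EGR proteins are zinc finger factors that bind GC-rich sites. Many of these genes are switched on within minutes of growth factor or stress signals, through ERK, JNK and p38 kinases acting on SRF, its ternary complex partners such as ELK1, and CREB. Most of their mRNAs are short-lived.

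Libraries held 25632275 to 29095133 counted reads in knockout cells and 21533615 to 25055762 in control cells. PHF8 itself had 259, 167 and 348 reads in knockout libraries 1, 2 and 3, against 833, 876 and 881 in the control libraries, a log2 fold change of -1.78 (SE 0.21; edgeR adjusted p = 1.19e-04). Of 14398 tested genes, 59.7% were called by edgeR at an adjusted p under 0.05: 28.9% were higher in knockout cells and 30.8% lower. Knockout library 2 stood apart from the others of its group, with a chi-square per degree of freedom of 57.5 and 74.3 against libraries 3 and 1, where libraries 1 and 3 gave 11.1. Renal markers fixed for the check (PAX8, PAX2, KRT8, KRT18 and others, 12 in all) were all detected. PAX8 (0.70) and KRT18 (0.33) were among the 3 of these that rose in log2 fold change and PAX2 (-1.08) was the 1 that fell, though KRT18 was not called with library totals and fell with the length and GC offset described below. Their summed level was 7282 to 8660 CPM in knockout and 6826 to 6878 CPM in control libraries. CPM is the read count scaled to library size with TMM factors. Of 15 markers of other cell types 6 were tested, 2 rose and 2 fell. PTPRC, CD3E, CDH5 and HBB were among those with no read, and the list summed to 121 to 133 CPM in knockout and 54.0 to 57.7 CPM in control libraries. Most of that sum was CD68, a lysosomal glycoprotein, at 117 ± 4.78 CPM in knockout and 45.0 ± 2.37 CPM in control cells (SD, n = 3 each). ACTA2, a smooth muscle actin, rose with it, to 5.74 ± 1.02 CPM in knockout against 2.93 ± 0.42 CPM in control cells (not called with the offset, edgeR adjusted p = 0.10), while PDGFRB and LUM fell (log2 fold changes -1.96 and -2.61). Without CD68 and ACTA2 the list summed to 3.04 to 4.89 CPM in knockout and 6.91 to 8.01 CPM in control libraries. The part of these markers in the results was not tested.

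Of the 10 genes, 9 passed the filter on low counts. In knockout cells 5 of them rose (EGR2, FOSB, FOSL1, JUNB and JUND), 2 fell (EGR1 and FOS), and FOSL2 and JUN did not pass the test. These 7 calls are 77.8% of the 9 genes, beside 59.7% over all tested genes, and the median log2 fold change of the 9 was 0.26, beside -0.01 over all tested genes. EGR1, EGR2, FOS and FOSB were also past 2-fold, which 23.4% of tested genes were, 9.2% on the higher side like EGR2 and FOSB and 14.2% on the lower side like EGR1 and FOS. Fold changes can run with transcript length and GC content, and how strongly they did so over all genes is not given here. The 10 genes differ widely in both, from 1.70 kb (FOSL1) to 6.71 kb (FOSL2) and from 51.0% GC (EGR2) to 69.9% GC (JUND). Medians over tested genes were 3.17 kb and 48.0%. When each library's trend with length and GC content was removed by an offset, 3 genes rose (EGR2, FOSB and FOSL2) and 4 fell (EGR1, FOS, JUN and JUND), with a median of -0.20. In that fit 58.6% of all tested genes were called, 30.5% higher and 28.1% lower. The offset takes out every contrast between the groups that tracks these 2 features, whatever its source. EGR1, EGR2, FOS and FOSB thus kept their call and direction with and without it, and the other 5 each changed call or direction.

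**Figure D1:**
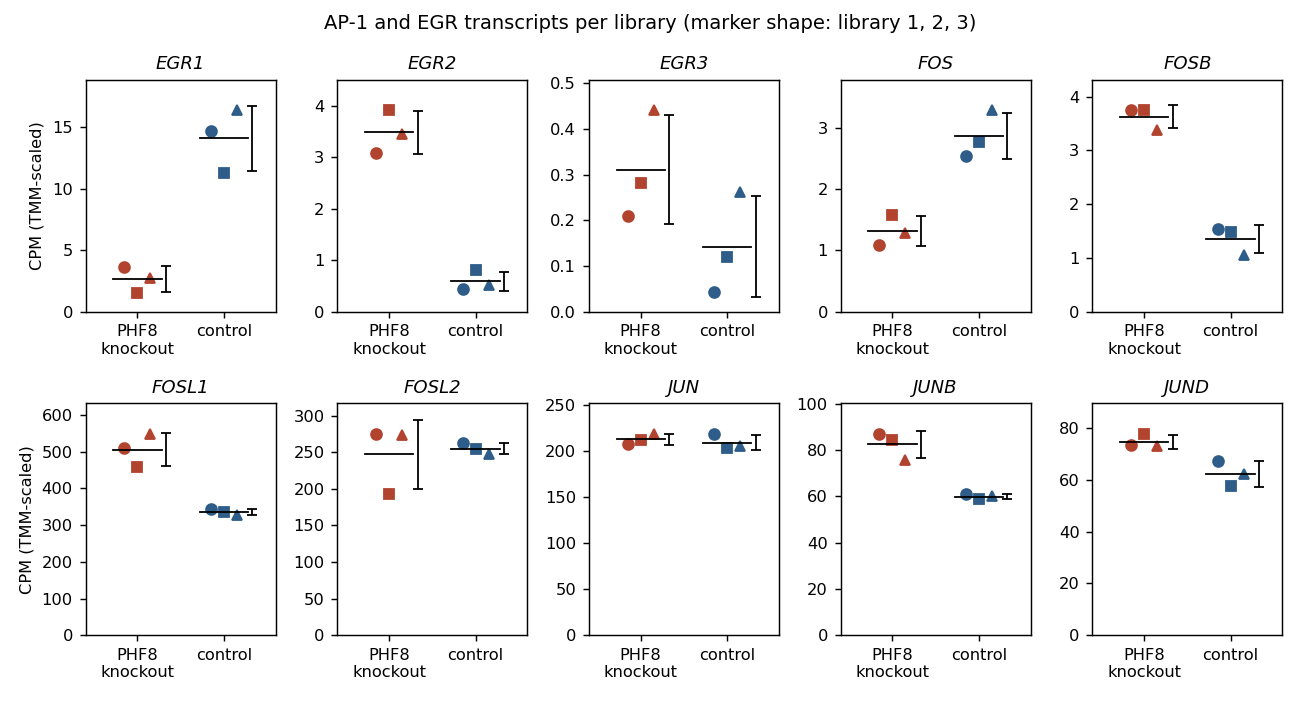
Level of each gene in CPM (TMM-scaled; linear axes from 0, 1 scale per gene) in the 3 PHF8 knockout libraries (left, red) and the 3 control libraries (right, blue). Marker shape gives the library number, the horizontal line the mean and the bar 1 SD; EGR1 and FOS lie lower and EGR2 and FOSB higher in all 3 knockout libraries, while EGR3, FOSL2 and JUN overlap between the groups.

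**Figure D2:**
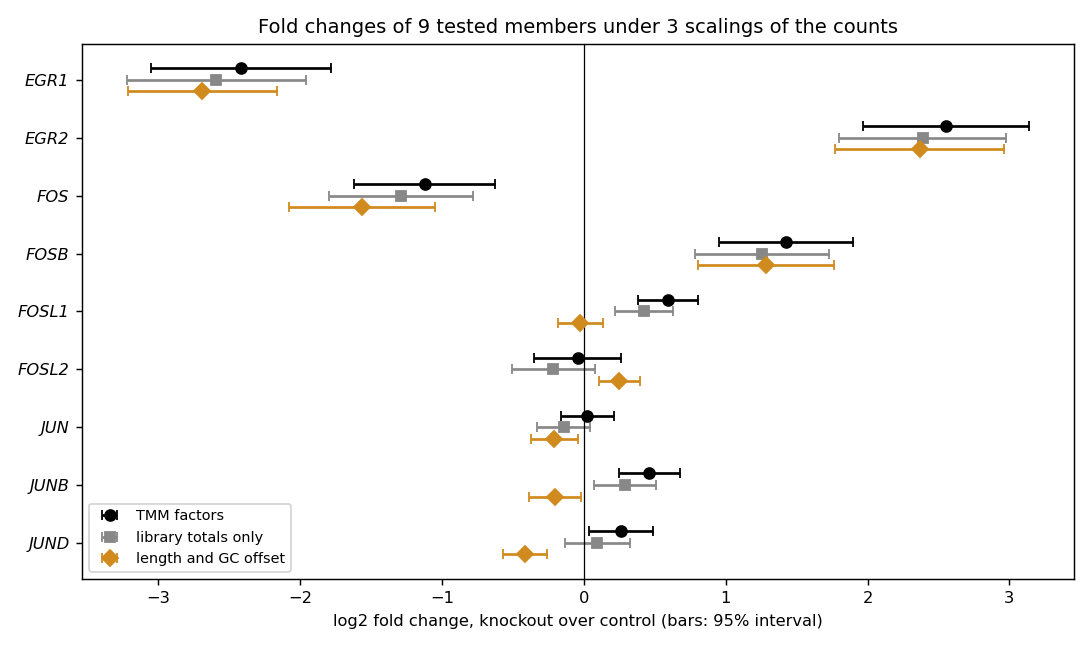
Log2 fold change (knockout over control) with its 95% interval for the 9 tested genes, with TMM factors (circles), library totals only (squares) and the length and GC offset (diamonds). The 3 estimates stay on 1 side of 0, with intervals that leave out 0, for EGR1, EGR2, FOS (-1.12 with TMM factors to -1.57 with the offset) and FOSB, while FOSL1, JUNB and JUND move from above 0 to 0 or below with the offset.

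EGR1, a growth factor-induced activator, and EGR2, best known for its part in myelination and hindbrain patterning, moved in opposite directions. Their promoters are shown because they share an arrangement of sites although their transcripts moved apart. For each gene the 250 bases before a RefSeq start are given 5′ to 3′ (build GRCh38.p14), with CArG boxes, the site bound by SRF, and the CREB half-site TGACG, on either strand, in capitals.
EGR1: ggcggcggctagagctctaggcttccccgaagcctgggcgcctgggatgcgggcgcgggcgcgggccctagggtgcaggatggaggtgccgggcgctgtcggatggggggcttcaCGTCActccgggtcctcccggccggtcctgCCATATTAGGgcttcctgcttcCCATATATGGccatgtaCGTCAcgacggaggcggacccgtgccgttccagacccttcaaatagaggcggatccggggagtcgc
EGR2: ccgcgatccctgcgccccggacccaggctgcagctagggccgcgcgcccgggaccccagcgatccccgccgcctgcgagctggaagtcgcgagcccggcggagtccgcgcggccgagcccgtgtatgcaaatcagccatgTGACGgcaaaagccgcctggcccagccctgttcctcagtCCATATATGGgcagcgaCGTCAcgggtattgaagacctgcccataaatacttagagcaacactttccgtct
The EGR1 window is chr5:138465229-138465478 on the plus strand. The EGR2 window is chr10:62816367-62816616 on the minus strand and lies before the third of 3 EGR2 starts in the table; the windows before the other starts held none of the 5 motifs searched. These were the CArG box, TGACG, its palindrome TGACGTCA, the AP-1 site TGANTCA and TATAAA, all on both strands except TATAAA. EGR1 has CArG boxes 105 and 83 bases before its start and EGR2 has one 71 bases before its start. The box nearest the start has the same letters in both genes, ccatatatgg, and in both it is followed by 7 bases and then CGTCA. Only these 2 of 35116 RefSeq promoter windows (0.0057%) held a CArG box followed in that way, whereas 1.16% held a CArG box and 21.2% held TGACG on either strand (TGACGTCA, which contains it, 1.65%, and TGANTCA 6.57%). The spacing searched for was read from these 2 windows, so both had to match, and the 0.0057% does not test their likeness. A match describes letters and not a used site, and which EGR2 start these cells use was not measured.

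The EGR1 gene lies on chromosome 5, from 138465479 to 138469303 (GRCh38). EGR1 was covered by 87, 38 and 75 reads in knockout libraries 1, 2 and 3, against 334, 281 and 439 in the control libraries. This is 3.62, 1.53 and 2.76 CPM in knockout cells and 14.7, 11.2 and 16.4 CPM in control cells. All 3 knockout libraries lay below all 3 control libraries, with library 2 lowest. The groups were separate in this way, in either direction, for 66.8% of tested genes. In bulk RNA fewer expressing cells and less RNA per cell cannot be told apart. EGR1 was 5.34-fold lower in knockout cells (log2 fold change -2.42, SE 0.28; edgeR adjusted p = 1.17e-04). The value was -2.69 with the length and GC offset and -2.15 without knockout library 2.

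The EGR2 gene lies on chromosome 10, from 62811996 to 62819167 (GRCh38). EGR2 was covered by 74, 97 and 94 reads in the knockout libraries, against 10, 20 and 14 in the control libraries. These are 3.08, 3.91 and 3.46 CPM in knockout cells and 0.44, 0.80 and 0.52 CPM in control cells, with no overlap. EGR2 was 5.87-fold higher in knockout cells (log2 fold change 2.55, SE 0.26; edgeR adjusted p = 6.38e-05); with the offset the value was 2.37. An unnamed long noncoding RNA on the same strand shares 145 exonic bases with EGR2 in GENCODE, and how its reads were assigned is not known.

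Because of both changes the EGR reads were differently composed. EGR2 made up 46.0%, 71.9% and 55.6% of the reads of EGR1 and EGR2 together in knockout libraries 1, 2 and 3, against 2.91%, 6.64% and 3.09% in control libraries. This share does not depend on how libraries are scaled. Its mean was 57.8% ± 13.1 in knockout and 4.21% ± 2.11 in control cells (SD, n = 3 each; two-sided exact permutation p = 0.1, the smallest that 3 against 3 libraries allow, and 0.1 after adjustment over 12 shares). Summed per kilobase of transcript, the 3 EGR genes reached 2.08 ± 0.19 CPM per kb in knockout and 4.72 ± 0.80 CPM per kb in control cells.

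EGR3, a further member induced like EGR1, had 5, 7 and 12 reads in the knockout libraries against 1, 3 and 7 in the control libraries. The groups overlap and the gene did not pass the filter on low counts. Fitted without that filter its log2 fold change was 1.06 (edgeR adjusted p = 0.23), so a difference was not detectable at this depth. EGR4 had 0 reads in all 6 libraries, which allows up to 0.037 CPM in knockout and 0.043 CPM in control cells (3 counts over each group; counting error only).

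Neither corepressor of EGR proteins passed the test. NAB1 was at 38.9 ± 2.55 CPM in knockout and 38.5 ± 5.49 CPM in control cells, and NAB2, itself an EGR target, at 16.4 ± 2.11 CPM in knockout and 17.4 ± 1.81 CPM in control cells (SD, n = 3 each; edgeR adjusted p = 0.93 for NAB1 and 0.63 for NAB2). With the length and GC offset NAB1 rose (0.62) and NAB2 fell (-0.56) on the log2 scale (edgeR adjusted p = 1.99e-04 and 0.0014). WT1, a zinc finger factor that binds related GC-rich sites, was at 14.96 ± 0.34 CPM in knockout and 13.1 ± 0.83 CPM in control cells (edgeR adjusted p = 0.19).

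Counted reads of FOS, the founding AP-1 member, and of its close relative FOSB also moved apart. Those of FOSB cannot be told apart from reads of unspliced ERCC1 RNA, as described below. The promoter windows of FOS and FOSB are shown for the same reason, with the same marking of sites.
FOS: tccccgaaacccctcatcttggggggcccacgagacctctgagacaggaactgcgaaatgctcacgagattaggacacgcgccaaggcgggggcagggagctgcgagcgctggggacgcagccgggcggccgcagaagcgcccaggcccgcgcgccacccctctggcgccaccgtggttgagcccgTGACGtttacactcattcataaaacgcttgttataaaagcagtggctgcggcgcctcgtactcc
FOSB: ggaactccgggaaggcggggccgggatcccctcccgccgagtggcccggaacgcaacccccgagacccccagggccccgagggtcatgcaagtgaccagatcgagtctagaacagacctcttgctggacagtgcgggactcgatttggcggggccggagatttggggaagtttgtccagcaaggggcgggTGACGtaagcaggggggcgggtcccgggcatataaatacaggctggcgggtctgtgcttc
The windows are chr14:75278578-75278827 and chr19:45467746-45467995, both on the plus strand. Neither held a CArG box within these 250 bases, and bases further upstream were not searched. Both held TGACG, 64 bases before the start in FOS and 60 bases before it in FOSB, and TATAAA 33 and 30 bases before it. TGACG followed by 25 or 26 bases and TATAAA occurred in 10 of the 35116 windows (0.0285%), and TATAAA alone in 6.8%. This spacing too was read from the FOS and FOSB windows, so both had to match. Among the other genes of the set with a window, FOSL2, JUN, JUNB and JUND held TGACG, in JUND once as the whole palindrome, and none held a CArG box. No window of the set held TGANTCA.

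The FOS gene lies on chromosome 14, from 75278826 to 75282230 (GRCh38). FOS was covered by 26, 39 and 35 reads in the knockout libraries, against 58, 69 and 88 in the control libraries. It reached 1.08, 1.57 and 1.29 CPM in knockout cells and 2.54, 2.76 and 3.29 CPM in control cells, without overlap. FOS was 2.18-fold lower in knockout cells (log2 fold change -1.12, SE 0.22; edgeR adjusted p = 0.0020); the offset gave -1.57.

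The FOSB gene lies on chromosome 19, from 45467995 to 45475179 (GRCh38). FOSB was covered by 90, 93 and 92 reads in the knockout libraries, against 35, 37 and 28 in the control libraries. It reached 3.75, 3.75 and 3.38 CPM in knockout cells and 1.54, 1.48 and 1.05 CPM in control cells. FOSB was 2.68-fold higher in knockout cells (log2 fold change 1.42, SE 0.21; edgeR adjusted p = 4.08e-04); the offset gave 1.28.

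FOSB lies within the span of ERCC1, a DNA repair gene on the opposite strand, although no exons overlap in GENCODE and it is not known whether reads were counted by strand. ERCC1 was far more abundant and also rose, to 153 ± 11.7 CPM in knockout against 64.7 ± 4.98 CPM in control cells (SD, n = 3 each; log2 fold change 1.24, edgeR adjusted p = 2.82e-05). FOSB reads were 2.45%, 2.28% and 2.40% of ERCC1 reads in the knockout libraries and 2.18%, 2.39% and 1.69% in the control libraries, which overlap (two-sided exact permutation p = 0.2). With the strand setting unknown, reads of FOSB and of unspliced ERCC1 RNA cannot be told apart here. FOSB made up 73.5% ± 3.68 of the reads of FOS and FOSB together in knockout and 32.2% ± 7.14 in control cells (SD, n = 3 each; two-sided exact permutation p = 0.1).

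FOSL1 and FOSL2, which encode FRA-1 and FRA-2, held nearly all FOS-family reads. FOSL1 (chromosome 11, 65892049 to 65900573, GRCh38) is the family member most often tied to invasive carcinoma cells. It had 508, 458 and 549 CPM in the knockout libraries, against 343, 335 and 326 CPM in the control libraries, with no overlap. It was 1.51-fold higher in knockout cells (log2 fold change 0.59, SE 0.09; edgeR adjusted p = 6.02e-04), whereas the offset put it at -0.03 (edgeR adjusted p = 0.77).

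FOSL2 (chromosome 2, 28392448 to 28417317, GRCh38) had 275, 193 and 273 CPM in the knockout libraries and 263, 254 and 248 CPM in the control libraries. Knockout library 2 lay below, and the other 2 above, all control libraries. The log2 fold change was -0.04 (95% interval -0.35 to 0.26; edgeR adjusted p = 0.80), it was 0.11 without knockout library 2, and with the offset FOSL2 was called higher, at 0.25 (edgeR adjusted p = 0.0080). FOSL1 took 66.9% ± 2.69 of FOS-family reads in knockout and 56.4% ± 0.12 in control cells (SD, n = 3 each; two-sided exact permutation p = 0.1). That share carries the length difference between the genes, and with the offset FOSL2 and not FOSL1 was the higher of the pair in log2 fold change.

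**Figure D3:**
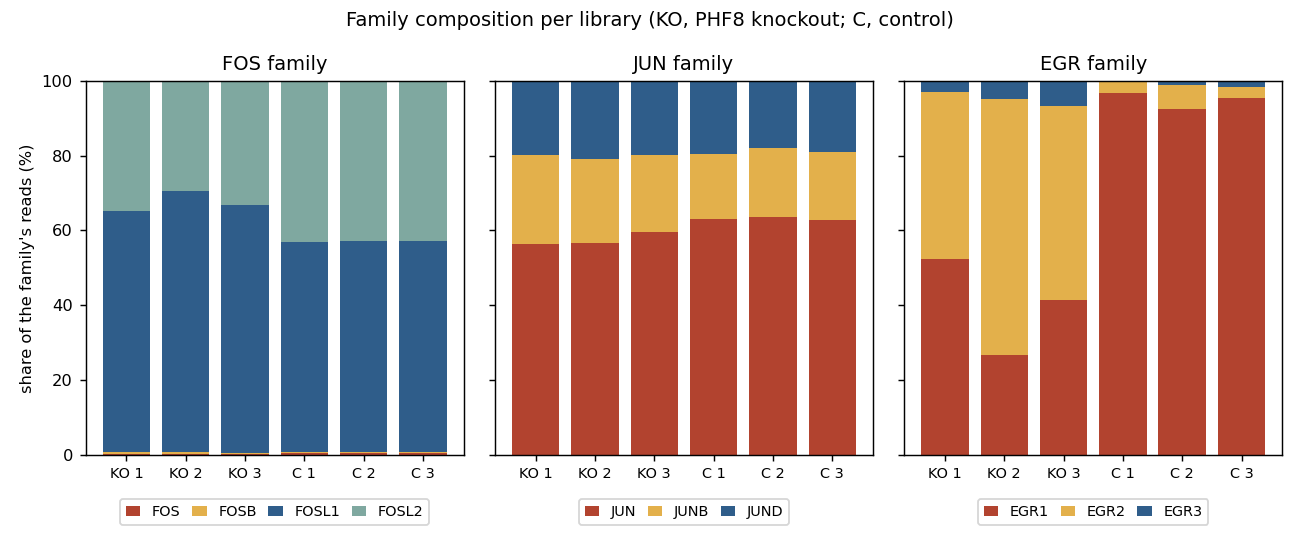
Share of each family's reads (percent, uncorrected for transcript length) taken by each member in knockout libraries 1 to 3 (KO) and control libraries 1 to 3 (C). EGR2 takes 44.6% to 68.3% of EGR reads in knockout and 2.90% to 6.58% in control libraries, FOSL1 and FOSL2 fill almost the whole FOS family, and the JUN family shifts by a few percentage points.

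The JUN genes, which each consist of a single exon in GENCODE, differed from control cells by 1.38-fold at most. JUN (chromosome 1, 58776845 to 58784048, GRCh38), the strongest transactivator of the 3, had 208, 212 and 219 CPM in the knockout libraries and 219, 204 and 205 CPM in the control libraries, which overlap. Its log2 fold change was 0.03 (95% interval -0.16 to 0.21; edgeR adjusted p = 0.81). It was -0.14 with library totals only (edgeR adjusted p = 0.17) and fell by 0.21 with the length and GC offset (edgeR adjusted p = 0.035), a call lost when the replicate block was added (edgeR adjusted p = 0.052).

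JUNB (chromosome 19, 12791486 to 12793315, GRCh38), which often restrains JUN, had 87.1, 84.4 and 75.9 CPM in the knockout libraries, against 61.1, 58.8 and 60.0 CPM in the control libraries. It was 1.38-fold higher (log2 fold change 0.46, SE 0.10; edgeR adjusted p = 0.0027), but lay at -0.20 with the offset (edgeR adjusted p = 0.057). A HOOK2 transcript on the opposite strand shares 259 exonic bases with JUNB in GENCODE, and HOOK2 had 15.9 ± 0.54 CPM in knockout and 13.9 ± 1.35 CPM in control cells (SD, n = 3 each).

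JUND (chromosome 19, 18279694 to 18281622, GRCh38), the member expressed steadily in resting cells, had 73.3, 77.7 and 72.8 CPM in the knockout libraries, against 67.4, 57.4 and 62.0 CPM in the control libraries. The groups did not overlap, and JUND was called 1.20-fold higher (log2 fold change 0.26, SE 0.10; edgeR adjusted p = 0.045). That call was lost with library totals only (0.09), without the filter on low counts (edgeR adjusted p = 0.14), and without knockout library 1 or 3 or control library 2 or 3 (edgeR adjusted p = 0.076, 0.081, 0.18 and 0.11). With the offset JUND was called lower, at -0.42 (edgeR adjusted p = 5.88e-04). JUN took 57.6% ± 1.74 of JUN-family reads in knockout and 63.1% ± 0.51 in control cells (SD, n = 3 each; two-sided exact permutation p = 0.1), and the 3 genes differ in GC content (56.1% in JUN, 64.9% in JUNB and 69.9% in JUND).

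Per kilobase of transcript, FOSL1 was the most abundant of the 10 genes in both groups, at 297 ± 26.5 CPM per kb in knockout and 197 ± 4.83 CPM per kb in control cells (SD, n = 3 each). JUN followed, at 65.4 ± 1.74 CPM per kb in knockout and 64.3 ± 2.48 CPM per kb in control cells. In knockout cells JUNB (45.1), JUND (38.7) and FOSL2 (36.8 CPM per kb) came next, with JUND and FOSL2 overlapping. They were followed far below by EGR2 (1.17), FOSB (0.96), EGR1 (0.84), FOS (0.62) and EGR3 (0.069 CPM per kb), where EGR1 overlapped with FOSB above it and FOS below it. In control cells the order after JUN was FOSL2 (37.98), JUNB (32.8), JUND (32.3), EGR1 (4.50), FOS (1.36), FOSB (0.36), EGR2 (0.20) and EGR3 (0.031 CPM per kb), and only JUNB and JUND overlapped. In mean level EGR1 stood below EGR2 in knockout cells, where the ranges of the pair overlapped (EGR1 was the higher in knockout library 1, at 1.16 against 1.03 CPM per kb), and above it in all 3 control libraries. The 4 genes that passed 2-fold were all among the scarce ones.

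The 3 tested genes closest to EGR1 in their profile over the 6 libraries were TMEM121, LIPE (hormone-sensitive lipase) and PTCH1 (the Hedgehog receptor). Their root mean square distances in centred log2 CPM were 0.18, 0.19 and 0.22. LOC105373428 and the pseudogene RPL7AP22 were closest to EGR2, at 0.089 and 0.15. In control libraries 1, 2 and 3 LOC105373428 had only 2, 4 and 3 reads, and RPL7AP22 had 1, 4 and 2. LIPE had 15, 7 and 12 reads in the knockout libraries. Whether such nearness is unusual among the tested genes, or reflects shared control, was not tested. LIPE averaged 0.45 ± 0.17 CPM in knockout and 3.09 ± 0.34 CPM in control cells (SD, n = 3 each).

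Among kinases and GTPases that feed immediate early genes, 13 of 26 tested fell and 6 rose in knockout cells, with a median log2 fold change of -0.48 beside -0.01 over all tested genes. Calls made up 73.1% of the list, beside 59.7% of all tested genes. The fallen share was 50%, beside 30.8%, and the risen share 23.1%, beside 28.9%. With the length and GC offset 9 fell and 2 rose, with a median of -0.11. In that fit 28.1% of all tested genes were lower and 30.5% higher. RPS6KA5, the kinase MSK1 that phosphorylates CREB and histone H3, was at 4.12 ± 0.60 CPM in knockout and 16.0 ± 1.48 CPM in control cells (SD, n = 3 each; log2 fold change -1.95, -0.50 with the offset). For RPS6KA5 the offset used a canonical transcript of 26.8 kb, far above the median of 3.17 kb over tested genes. BRAF, a kinase upstream of ERK, and MAP2K4, which activates JNK, fell 2.16-fold and 2.09-fold, with log2 fold changes of -0.25 and -0.59 with the offset. RPS6KA5 and BRAF were not called when the replicate block was added to the offset (edgeR adjusted p = 0.065 and 0.060).

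Among 15 SRF, ternary complex, CREB and MEF2 factors there were 2 that rose, 5 that fell and 8 that were not called (median log2 fold change -0.26). Calls made up 46.7% of the list, beside 59.7% of all tested genes. With the offset 6 rose and 5 fell (median 0.04). SRF was at 96.7 ± 12.5 CPM in knockout and 70.9 ± 2.87 CPM in control cells (log2 fold change 0.45; edgeR adjusted p = 0.0078, and 0.053 with library totals), a gene named with MKL2 and MEF2A after its values were seen. CRTC1, a CREB coactivator, rose 2.59-fold. ELK3, an SRF partner that can repress, fell 2.07-fold. MEF2C fell 2.37-fold, and was not called with the offset (log2 fold change -0.23). CREB1 (-0.97) and MEF2A (-0.50) fell in log2 fold change without the offset and were called higher with it (0.25 and 0.28). MEF2A was not called without knockout library 3 or control library 2 or 3 (edgeR adjusted p = 0.051, 0.082 and 0.073). MKL2, an actin-regulated SRF coactivator, had a log2 fold change of -1.14, and of -0.31 with the offset, and was not called with the offset and replicate block together (edgeR adjusted p = 0.055).

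Of 12 other basic leucine zipper genes whose products can pair with FOS or JUN, 9 were tested, 3 rose and 1 fell (median log2 fold change 0.17). Calls made up 44.4% of those tested, beside 59.7% of all tested genes. With the offset 2 rose and 3 fell. MAFG, a small MAF protein, rose 1.40-fold, to 86.4 ± 7.17 CPM in knockout against 61.7 ± 2.44 CPM in control cells (SD, n = 3 each). ATF2, a partner of JUN, fell 2.04-fold, with a log2 fold change of -0.31 with the offset and no call when the replicate block was added to it (edgeR adjusted p = 0.059). The stress-induced ATF3 and the scarce BATF2 rose 1.54-fold and 2.45-fold, and neither call held with the offset (edgeR adjusted p = 0.35 and 0.14). ATF3 was also not called with library totals (edgeR adjusted p = 0.086) or without knockout library 1 or 3 or control library 3 (edgeR adjusted p = 0.079, 0.061 and 0.080), nor BATF2 with DESeq2 (adjusted p = 0.055) or without knockout library 3 or control library 1 or 2 (edgeR adjusted p = 0.063, 0.060 and 0.070).

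Genes for RNA decay and protein turnover of AP-1 factors gave 2 higher and 4 lower of 12 tested (median log2 fold change -0.11, and 2 higher and 5 lower with the offset). Calls made up 50% of the list, beside 59.7% of all tested genes. The risen share was 16.7%, beside 28.9%, and the fallen share 33.3%, beside 30.8%. HNRNPD, the AU-rich element binding protein AUF1, fell 2.07-fold, and NEDD4, a ubiquitin ligase, 2.71-fold (log2 fold change -1.44, and -0.53 with the offset). ITCH, the ligase that marks JUN and JUNB for degradation, fell 1.98-fold, and the offset put it at -0.03 on the log2 scale (edgeR adjusted p = 0.74). KHSRP and ZFP36L2, named after their values were seen, were called higher at 0.32 and 0.36 on the log2 scale (edgeR adjusted p = 0.045 and 0.021). Neither was called with library totals (edgeR adjusted p = 0.30 for KHSRP and 0.17 for ZFP36L2), without knockout library 1 (0.12 and 0.066) or without control library 3 (0.11 and 0.090), and ZFP36L2 was not called with the offset (0.075). KHSRP was also not called without knockout library 3 (edgeR adjusted p = 0.16), control library 1 (0.070) or control library 2 (0.091). Its call was lost as well with limma-voom (limma adjusted p = 0.053) and with the replicate block (edgeR adjusted p = 0.069). That of ZFP36L2 was also lost without the filter on low counts (edgeR adjusted p = 0.056).

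Other immediate early genes were mixed. In knockout cells 11 of 24 tested rose and 4 fell, leaving 9 past neither side of the threshold (median log2 fold change 0.21). Calls made up 62.5% of those tested, beside 59.7% of all tested genes. Under the offset 8 were higher and 7 lower (median 0.0020). IER2, a small nuclear protein, was at 122 ± 1.34 CPM in knockout and 62.4 ± 5.14 CPM in control cells (SD, n = 3 each; log2 fold change 0.96, and 0.38 with the offset). PPP1R15A, a stress-induced phosphatase subunit, rose 2.03-fold (0.54 on the log2 scale with the offset). The secreted matricellular protein genes CTGF and CYR61 fell 2.89-fold and 1.75-fold. CTGF was at 26.3 ± 2.89 CPM in knockout and 75.9 ± 5.31 CPM in control cells, and CYR61 at 322 ± 18.9 CPM in knockout and 565 ± 23.7 CPM in control cells. The other 2 that fell, named after their values were seen, were BTG2 (-1.20) and KLF6 (-0.46, and -0.10 with the offset, where it was not called) in log2 fold change.

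Among 22 tested AP-1 target genes there were 10 that rose and 2 that fell, and 10 were not called (median log2 fold change 0.23; 12 higher and 4 lower with the offset, median 0.21). The risen share was 45.5%, beside 28.9% of all tested genes, but the share called in either direction was 54.5%, beside 59.7%, and 7 rose with library totals only. The matrix protease MMP9 was at 6.29 ± 0.52 CPM in knockout and 1.69 ± 0.19 CPM in control cells (SD, n = 3 each; log2 fold change 1.89). LIF, a cytokine, rose 2.07-fold. PLAUR, the urokinase receptor, rose 1.77-fold (log2 fold change 0.82, and 0.21 with the offset). The 2 that fell, named after their values were seen, were PTGS2 (-2.08) and ITGA2 (-0.78) in log2 fold change, and neither passed with the offset (edgeR adjusted p = 0.0505 and 0.34). ITGA2 was also not called without control library 2 or 3 (edgeR adjusted p = 0.067 and 0.066).

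The 14 EGR target genes split into 8 that rose, 3 that fell and 3 that were not called (median log2 fold change 0.47). Calls made up 78.6% of the list, beside 59.7% of all tested genes. The risen share was 57.1%, beside 28.9%, and the fallen share 21.4%, beside 30.8%. With the offset 6 were higher and 3 lower (median 0.30), where 30.5% of all tested genes were higher and 28.1% lower. GDF15, a stress cytokine, was at 70.5 ± 11.2 CPM in knockout and 7.35 ± 0.83 CPM in control cells (SD, n = 3 each; log2 fold change 3.26, and 2.52 with the offset). F3, which encodes tissue factor, was at 51.2 ± 10.5 CPM in knockout and 15.9 ± 0.48 CPM in control cells. PPARG, a nuclear receptor, and HPSE, heparanase, fell 2.18-fold and 2.81-fold. THBS1, named after its values were seen, had a log2 fold change of -0.69, and -0.02 with the offset, and was not called without knockout library 1 or control library 1 (edgeR adjusted p = 0.071 and 0.059). These target lists are broad, and most of their genes also answer to other factors.

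**Figure D4:**
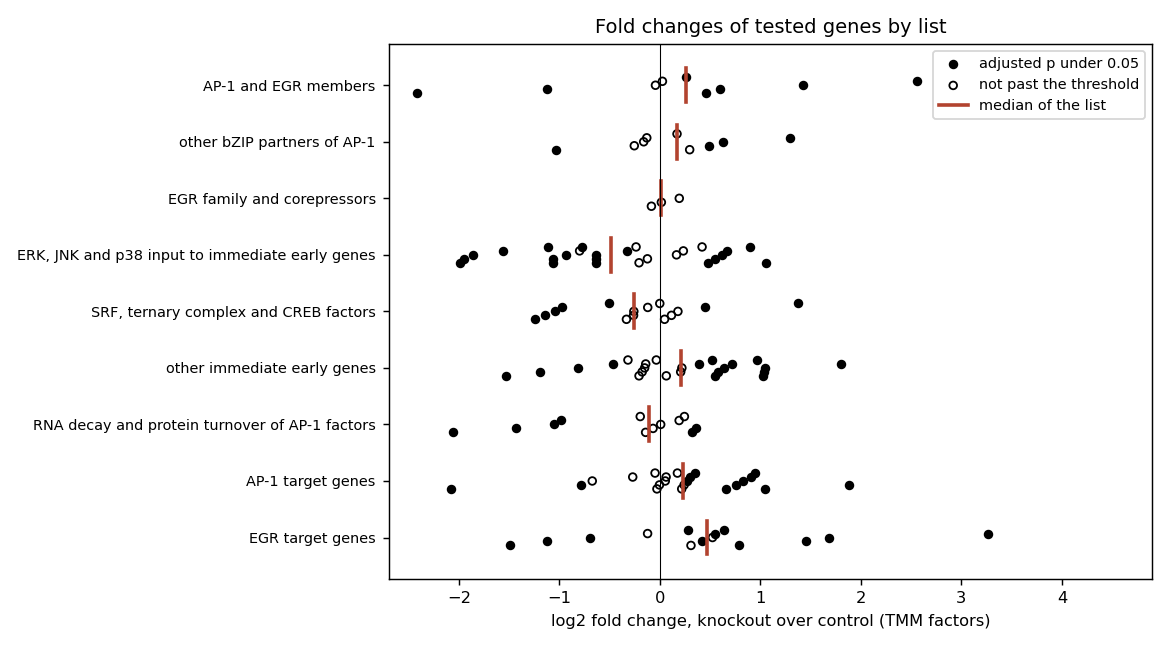
Log2 fold change (knockout over control, TMM factors) of every tested gene in each list; filled circles passed an adjusted p of 0.05, open circles did not, and red bars are list medians. The 9 AP-1 and EGR genes range from -2.42 to 2.55, and the kinase list has the lowest median, -0.48, of the lists drawn.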

How the data were processed

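The authors deposited raw read counts per gene symbol, 1 column per library, with no normalization. Per the series design text, reads were mapped to GRCh38 with HISAT2 (version 2.0.4 per the submitters' processing notes) and counted with HTSeq. HTSeq's version, how it treated strand, and the gene annotation it used: not given in the sources used here. Counts were fitted over all genes with edgeR 4.0.16 (R 4.3.3) by the quasi-likelihood test, with group as the only term, TMM factors (0.936 to 0.957 in knockout, 1.05 to 1.07 in control libraries), filterByExpr and a prior count of 0.125. Adjusted p-values are Benjamini-Hochberg over 14398 genes. Shares of reads were compared by exact permutation. SE is the log2 fold change over the root of F. For the offset, lowess trends (span 0.3) of each library against length and GC content of the GENCODE canonical transcript were removed; 92.5% of tested genes had both values. Annotation was joined by symbol. Libraries of a group differed beyond sampling noise (chi-square per degree of freedom 3.1 to 74.3).

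The members, lists and tests were chosen with earlier results of these data known. Named are PHF8, the members, up to 4 called genes with the smallest p per list, all genes of lists of 5 or fewer, and the profile neighbours of EGR1 and EGR2. Some genes that this rule names are not reported here. Genes named outside it are those overlapping a member, markers of the cell checks, and those the text marks as chosen after their values were seen. Promoter sequences are from RefSeq (GRCh38.p14); 8 of 10 members had one. The code was tested on simulated data. Alternatives were DESeq2 1.42.0, limma-voom (limma 3.58.1), other scalings, filters and dispersions, the replicate number as a block, the offset, and leaving out each library.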

Additional observations from a re-analysis of the deposited data

How the results depend on the processing

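EGR1, EGR2, FOS and FOSB passed in the same direction under every alternative run, with edgeR, DESeq2 or limma adjusted p-values up to 9.08e-04, 6.87e-04, 0.014 and 0.0026. None of these alternatives separates reads of FOSB from those of unspliced ERCC1 RNA. The length and GC offset changed the count of members called to 3 higher and 4 lower, against 5 and 2 without it, and to 3 higher and 3 lower when combined with the replicate block, where JUN lost its call (edgeR adjusted p = 0.052). It turned the log2 fold changes of FOSL1 (-0.026 with the offset, -0.027 with the block as well), FOSL2 (0.25 and 0.25), JUN (-0.21 and -0.21), JUNB (-0.20 and -0.21) and JUND (-0.42 and -0.42); the cause was not tested. JUN also turned with library totals only (-0.14), and FOSL2 ranged from -0.13 to 0.11 when each library was left out. Library totals alone shifted the median of all tested genes to -0.18, from -0.01, and put 36.7% of calls higher instead of 48.4%. The replicate numbers do not pair the libraries (correlations of same-numbered deviations 0.020, -0.044 and 0.011). No library of the knockout group correlated best with its own number. With the replicate block 8308 genes passed instead of 8593, and of the members' calls it ended that of JUND (edgeR adjusted p = 0.096). Directions of all 12 family shares held per kilobase. Within each replicate number and without each library they were bound to hold. The groups do not overlap in any share, and the numbered differences average to the group difference. The length and GC offset was not applied to the shares. Of 340 list counts under alternatives 37 moved by over 1.5 times, most with the offset or library totals: with library totals 7 other immediate early genes fell instead of 4. Depth limits EGR3 most, at 1 to 12 reads per library.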
